A study of Rattus norvegicus with 6 samples.

Results

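The miR-130 and miR-301 family of the rat has 4 precursors, miR-130a, miR-130b, miR-301a and miR-301b, and each gives a 5p and a 3p arm. Its members were taken by name, as every row whose identifier begins with rno-miR-130a-, rno-miR-130b-, rno-miR-301a- or rno-miR-301b-. That gave 8 of the 764 miRNA rows, 4 of them 3p arms and 4 of them 5p arms. All 8 had a value above 0 in some library and were among the 570 rows tested, so no member was lost to a filter, but 1 of the 8 averaged at least 10 reads per 1000000 assigned reads.

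The libraries came from small RNA of tissue labelled testicle, from male Sprague Dawley rats. The 3 HO-1 knockout libraries lack heme oxygenase 1, an enzyme that cells induce under stress to degrade heme, and the 3 WT libraries carry it. Every rat of both genotypes had the left testicle turned by 720° for 2 h and then released for 3 days, so the values compare genotypes within injured tissue. Tissue without torsion was not analysed here. The labels do not say how the knockout was made, nor that each library came from its own rat, and the deleted gene is not measured by a small RNA assay. Values are reads per 1000000 assigned reads (RPM), and the libraries held 8300536 to 10042673 reads as recovered from the size of 1 read, so that 1 read was worth 0.0996 to 0.120 RPM.

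Animal cells cut a miRNA hairpin into a short duplex and load 1 of its strands, the guide, into Argonaute, where bases 2 to 8 of the strand (the seed) pair with target messages. In this family the 3p arm is the strand usually named as the guide, and the 5p arm is its passenger. The family is known from vascular biology: miR-130a promotes the growth of human endothelial cells, and miR-130 and miR-301 lower the nuclear receptor PPARG in fat and in the remodelled vessels of pulmonary hypertension. The tissue label limits what can be read here, because miR-122-5p, a hepatocyte miRNA, held 40.2% to 46.4% of the reads in HO-1 knockout libraries and 32.7% to 36.6% in WT libraries. In the genotype comparison below, miR-122-5p did not pass (log2 difference 0.30, limma adjusted p = 0.095). The other hepatocyte markers listed had lower means in HO-1 knockout. Their log2 differences were -0.10 for miR-122-3p, -0.29 for miR-192-5p and -0.48 for miR-194-5p, of which miR-194-5p passed (limma adjusted p = 0.038). The germ cell and gonad markers (miR-34b, miR-34c, miR-449a-5p and miR-202) summed to 27.7 to 32.6 RPM in HO-1 knockout and to 36.2 to 53.5 RPM in WT, and 1 of their 7 rows, miR-202-3p, was at 0 in every library. The endothelial marker miR-126a had 19147 to 21287 RPM over its 2 rows in HO-1 knockout and 25222 to 26982 RPM in WT, and the part of any cell type in the family's values was not tested.

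The sequences below, from RefSeq on build GRCr8, show what the members share and how alike they are; capitals mark the seed. A mature sequence was found for 7 of the 8 rows, all but miR-301a-3p.
rno-miR-130a-3p: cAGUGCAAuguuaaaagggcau
rno-miR-130b-3p: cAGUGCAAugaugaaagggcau
rno-miR-301b-3p: cAGUGCAAugguauugucaaagc
rno-miR-130a-5p: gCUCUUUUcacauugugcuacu
rno-miR-130b-5p: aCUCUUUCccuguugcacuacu
rno-miR-301a-5p: gCUCUGACuuuauugcacuac
rno-miR-301b-5p: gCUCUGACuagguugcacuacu
The 3p arms shown start with the same 10 bases and so have 1 seed, AGUGCAA, which no other mature entry of the RefSeq table has. The 5p arms have 3 seeds, and miR-301a-5p and miR-301b-5p share theirs. miR-130a-3p and miR-130b-3p are identical at 20 of 22 positions and differ by U11A and A13G, counted from 1 at the 5′ end of the strand with the base of miR-130a-3p first. The sources used here do not say how reads that fit both were assigned, so the low value of miR-130b-3p beside that of miR-130a-3p carries this uncertainty. miR-301b-3p is identical to miR-130a-3p at 13 of 22 positions and to miR-130b-3p at 12 of 22, with the matching bases gathered at the 5′ end. miR-301a-5p and miR-301b-5p are identical at 18 of the 21 positions compared.

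The hairpins show where in each precursor the family seed lies, in capitals; in each of them these letters occur once, toward the 3′ side.
Mir130a: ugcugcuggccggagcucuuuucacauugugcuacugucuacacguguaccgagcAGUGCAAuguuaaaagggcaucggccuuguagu
Mir130b: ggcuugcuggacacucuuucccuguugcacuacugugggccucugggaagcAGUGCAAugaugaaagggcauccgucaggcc
Mir301a: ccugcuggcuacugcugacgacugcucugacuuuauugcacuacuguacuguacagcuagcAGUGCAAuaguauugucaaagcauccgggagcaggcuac
Mir301b: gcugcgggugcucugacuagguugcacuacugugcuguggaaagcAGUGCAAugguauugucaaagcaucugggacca
On GRCr8, Mir130a lies on the minus strand at chr3:90229228-90229315. Mir301a lies on the plus strand at chr10:72422599-72422698, within the span of the protein-coding genes Ska2 and Prr11. Mir301b and Mir130b form a cluster on the plus strand, at chr11:97384033-97384110 and chr11:97384380-97384461, with 269 bases between the hairpins and both within the span of the protein-coding gene 2610318N02Rikl. Whether these spans are exonic or intronic there was not looked up. The opposite strand at Mir130a carries another annotated hairpin, Mir3590, whose arms had 2 reads in WT library 1 for miR-3590-3p and 0 reads in all other cases, beside 163 to 217 reads per library of miR-130a-3p.

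The family was a low fraction of the small RNA, and 1 arm made up most of it. miR-130a-3p had 19.6, 17.5 and 20.4 RPM in HO-1 knockout libraries 1 to 3, against 21.6, 23.1 and 22.7 RPM in WT libraries 1 to 3. Every HO-1 knockout library was below every WT library, as in 21.6% of the 570 tested rows and 41.7% of the 218 averaging at least 10 RPM. The miR-130a-3p values rest on 163, 172 and 183 reads in HO-1 knockout and 217, 211 and 215 reads in WT. Exact 95% Poisson intervals cover counting error only. They reached from 15.0 to 23.5 RPM over the HO-1 knockout libraries and from 18.8 to 26.5 RPM over the WT libraries. Its mean over the 6 libraries ranked 184 among the 764 rows. It held 90.6% to 93.7% of the 3p reads of the family in HO-1 knockout and 90.4% to 95.9% in WT.

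The other 3p arms stood close to the limit of counting. miR-301a-3p had 0.84, 1.02 and 1.67 RPM in HO-1 knockout libraries, against 1.69, 0.44 and 0.42 RPM in WT libraries, which is 7, 10 and 15 reads against 17, 4 and 4 reads. The genotypes overlapped, and WT library 1 held both the highest value of its group and the highest of the 6. miR-130b-3p had 0.48, 0.51 and 0.44 RPM in HO-1 knockout and 0.50, 0.44 and 1.16 RPM in WT, from 4, 5 and 4 reads and from 5, 4 and 11 reads. All but WT library 3 lay within 1 read of each other. miR-301b-3p had 0, 1 and 0 reads in HO-1 knockout and 1, 1 and 0 reads in WT. A limit of 3 reads was set for a count of 0, or 0.299 to 0.361 RPM depending on the library. For a count of 1, the exact 95% Poisson interval reached 5.57 reads, or 0.555 to 0.610 RPM in these libraries. The level of miR-301b-3p was thus not resolved in either genotype, and no fold is given.

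Among the 5p arms, the order of the precursors was different. miR-301a-5p had 4.34, 6.32 and 4.12 RPM in HO-1 knockout and 5.08, 4.49 and 2.85 RPM in WT. miR-130b-5p had 4.22, 4.38 and 4.56 RPM in HO-1 knockout and 4.58, 3.29 and 1.90 RPM in WT. Both arms overlapped between genotypes, and WT library 3 held the lowest value of each. miR-130a-5p had 1.08, 0.82 and 0.89 RPM in HO-1 knockout and 1.59, 0.99 and 1.58 RPM in WT, again with overlap. miR-301b-5p had 1 read, in HO-1 knockout library 1, and 0 reads in the other 5 libraries.

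**Figure D1:**
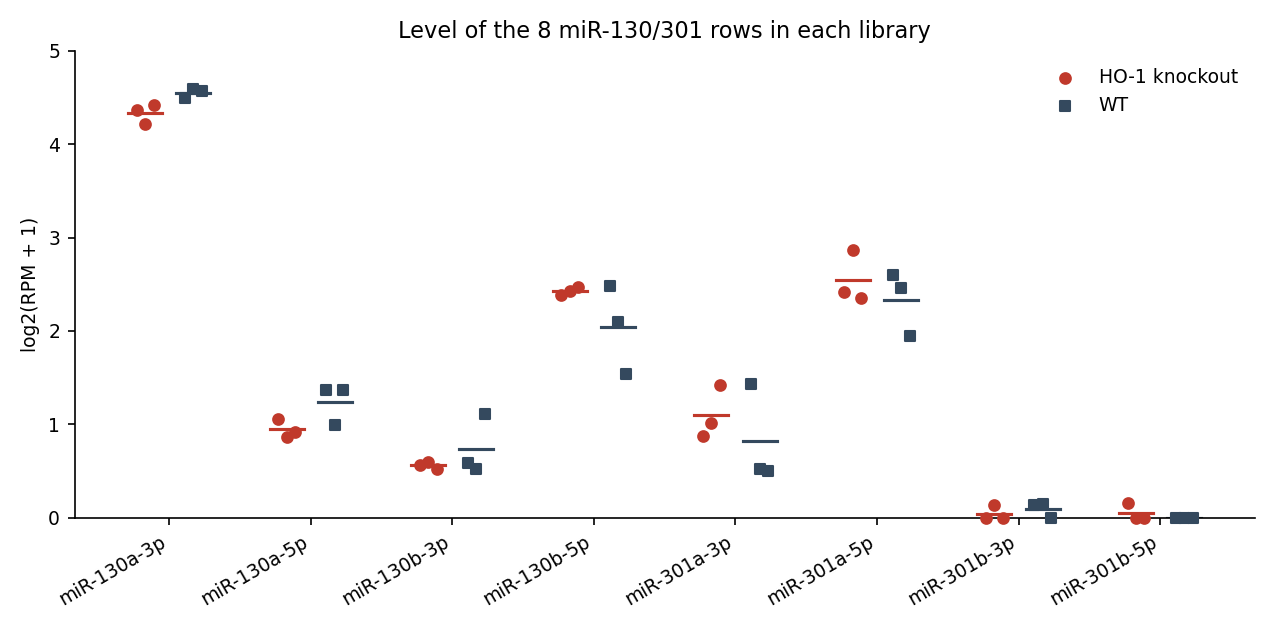
Level of each family row as log2(RPM + 1), with 1 point per library, HO-1 knockout as circles, WT as squares and short lines at the group means (n = 3 each). miR-130a-3p stands far above the other 7 rows, and both arms of miR-301b lie at or near 0. The HO-1 knockout points of miR-130a-3p are all below its WT points, as in 21.6% of the 570 tested rows.

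By mean RPM over the 6 libraries the rows ran from miR-130a-3p (20.8) through miR-301a-5p (4.53), miR-130b-5p (3.82), miR-130a-5p (1.16), miR-301a-3p (1.01) and miR-130b-3p (0.588) to miR-301b-3p (0.0517) and miR-301b-5p (0.020). The mature sequences are 21 to 23 bases long, so RPM compares them without a correction for length. The lowest value of miR-130a-3p, 17.5 RPM, was well above the highest of any other row, 6.32 RPM. The ranges of miR-301a-5p and miR-130b-5p overlapped across libraries, at 2.85 to 6.32 and 1.90 to 4.58 RPM. Within a library, miR-301a-5p was the higher except in HO-1 knockout library 3 (4.12 against 4.56 RPM). The ranges of miR-130a-5p, miR-301a-3p and miR-130b-3p also overlapped, at 0.82 to 1.59, 0.42 to 1.69 and 0.44 to 1.16 RPM. Within every library, though, miR-130a-5p was above miR-130b-3p. These differences between rows were not tested. Across different sequences, ligation and amplification can favour some strands over others, so the order describes reads and not molecules.

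Taking both arms together, miR-130a had 20.1 ± 1.5 RPM in HO-1 knockout and 23.9 ± 0.6 RPM in WT (SD, n = 3 each). miR-301a had 6.10 ± 1.11 RPM in HO-1 knockout and 4.99 ± 1.75 RPM in WT. miR-130b had 4.86 ± 0.15 RPM in HO-1 knockout and 3.96 ± 1.03 RPM in WT. Its cluster partner miR-301b, 269 bases away on the same strand, had 0.073 ± 0.064 RPM in HO-1 knockout and 0.070 ± 0.061 RPM in WT. Over the 6 libraries that is 246 reads of miR-130b and 4 reads of miR-301b, so 2 neighbouring hairpins of 1 cluster differed 61.5-fold in reads, a ratio whose lower count is too small to fix it closely. The 8 rows summed to 31.1 ± 0.8 RPM in HO-1 knockout and 32.9 ± 2.3 RPM in WT, given without a test.

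The precursors differed in the arm that held most reads. miR-130a reads were nearly all 3p: 94.8%, 95.6% and 95.8% in HO-1 knockout libraries, against 93.1%, 95.9% and 93.5% in WT libraries. For each 5p read of miR-130a there were 13.6 to 23.4 reads of its 3p arm in a library. miR-130b and miR-301a went the other way, with more reads of the arm usually called the passenger. miR-130b had 10.3%, 10.4% and 8.9% of its reads on the 3p arm in HO-1 knockout, against 9.8%, 11.8% and 37.9% in WT. miR-301a had 16.3%, 13.9% and 28.8% on the 3p arm in HO-1 knockout, against 25%, 8.9% and 12.9% in WT. The 5p arm held more reads than the 3p arm in 6 of 6 libraries for both precursors.

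The counts behind these shares are small, 29 to 51 reads per library for miR-130b and 31 to 72 for miR-301a, against 172 to 233 for miR-130a. The 95% Wilson interval of the 3p share stayed below 50% in every library for miR-301a, whose highest bound was 42.3%, and in all but WT library 3 for miR-130b, where 11 of 29 reads were 3p and the interval reached from 22.7% to 56.0%. Without WT library 3 the mean 3p share of miR-130b in WT was 10.8%, against 19.8% ± 15.7 with it and 9.9% ± 0.8 in HO-1 knockout (SD, n = 3).

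**Figure D2:**
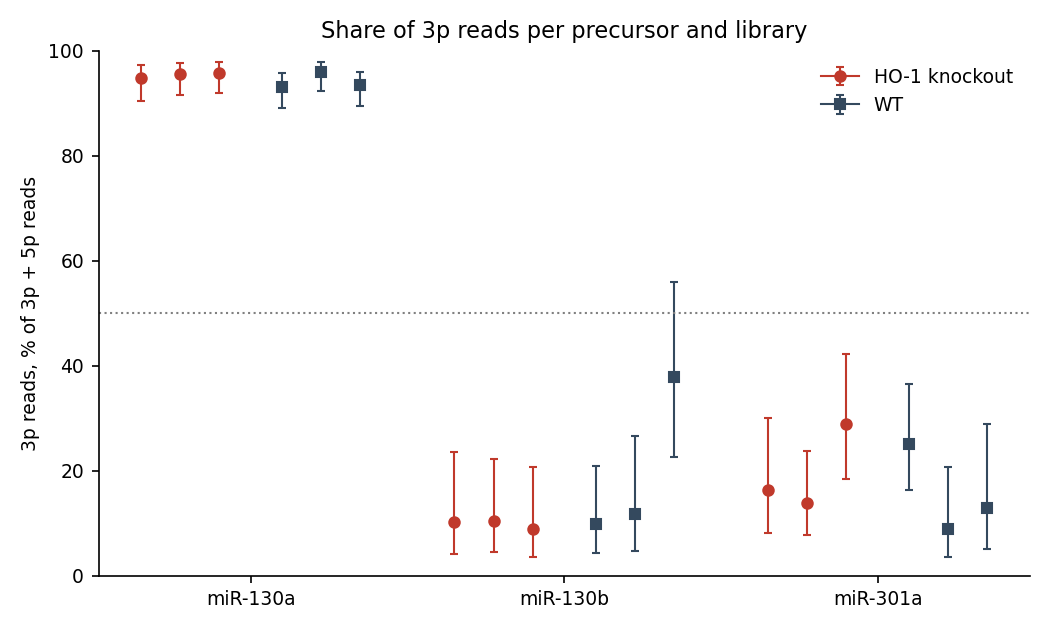
Share of 3p reads among the reads of both arms, in percent, for miR-130a, miR-130b and miR-301a in each library (HO-1 knockout as circles, WT as squares, bars the 95% Wilson interval, dotted line at 50%). miR-130a lies between 93.1% and 95.9%, while miR-130b and miR-301a lie below 50% in every library.

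In the whole table, 283 precursors had both arms listed and 180 of them reached a summed mean of 1 RPM. The 3p arm led in every library for 76 of these, or 42.2%, the 5p arm led in every library for 95, or 52.8%, and 9 were mixed. A 5p lead was thus common, and the median precursor had 33.6% of its reads on the 3p arm. Over the 6 libraries the 3p share was 94.7% for miR-130a, 13.4% for miR-130b and 18.3% for miR-301a. Many precursors were more one-sided than miR-130b and miR-301a, with 75 and 79 of the 180 at a lower 3p share. By reads, the family's 3p arms, which carry 1 seed, therefore came from precursors with opposite leading arms in these libraries. The share of miR-130b carries the uncertainty over reads that fit both miR-130a-3p and miR-130b-3p. Ligation and amplification can favour 1 strand of a precursor, so these shares describe reads and not molecules.

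**Figure D3:**
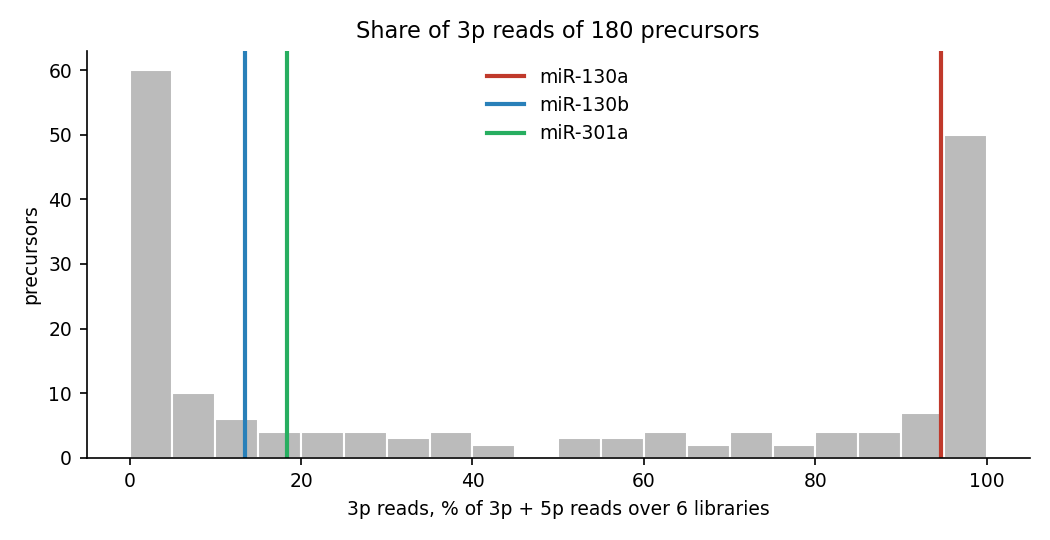
Number of precursors (vertical axis) by the 3p share of their reads over 6 libraries in percent, for the 180 precursors with a summed mean of at least 1 RPM; vertical lines mark the family. Most precursors sit near 0% or 100%, with miR-130a at 94.7%, miR-130b at 13.4% and miR-301a at 18.3%.

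The comparison between genotypes, the only contrast of the design, called no member of the family. limma was fitted to log2(RPM + 1) of all 570 tested miRNAs, and 36 of them, or 6.32%, passed at a Benjamini-Hochberg adjusted p below 0.05. Of the 8 family rows 0 passed, and 0 had an unadjusted p below 0.05 in limma. edgeR's quasi-likelihood test on the recovered reads also called 0 of the 8, with 10.7% of the 570 rows called, and DESeq2 called 0 of the 5 to which it gave an adjusted p, with 20.6% of its 349 such rows called. Neither gave a family row an unadjusted p below 0.05. In bulk tissue, fewer cells of a type and less of a miRNA per cell cannot be told apart, so each change is one of the tissue's reads.

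miR-130a-3p was lower in each HO-1 knockout library, at 19.2 ± 1.5 RPM, against 22.5 ± 0.8 RPM in WT (SD, n = 3 each). Its log2 difference was -0.22 (SE 0.17), with a 95% interval of -0.61 to 0.17 and a limma adjusted p of 0.49. Non-overlap in this direction was frequent: 21.6% of the 570 rows, and 41.7% of the 218 rows averaging at least 10 RPM, had every HO-1 knockout library below every WT library. The median log2 difference of those 218 rows was -0.29. The difference of miR-130a-3p was thus near the shift that abundant miRNAs shared in RPM. In HO-1 knockout, miR-122-5p held 43.4% ± 3.1 of the reads, against 35.2% ± 2.2 in WT (SD, n = 3 each). A two-sided exact permutation test of this share gave p = 0.1, the smallest possible, and its part in the shift was not tested. With RPM recomputed on totals without miR-122-5p the difference of miR-130a-3p was -0.03, with TMM scaling -0.02 and with RLE scaling 0.01, while the median of the 218 rows was -0.10, -0.08 and -0.06. Its direction therefore depended on the scaling.

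miR-130b-5p averaged 4.39 ± 0.17 RPM in HO-1 knockout and 3.26 ± 1.34 RPM in WT, a log2 difference of 0.39 (SE 0.29, limma adjusted p = 0.49). The interval of this difference, -0.29 to 1.07, reaches from a lower to a clearly higher level. TMM scaling gave 0.57 (SE 0.25, limma adjusted p = 0.25), and RLE scaling gave 0.58 with an unadjusted p of 0.044 and a limma adjusted p of 0.23. Totals without the 10 most abundant miRNAs gave 0.73 (unadjusted p of 0.049, limma adjusted p = 0.25). On recovered reads it was 0.67 in edgeR (unadjusted p of 0.0503, adjusted p = 0.24) and 0.70 in DESeq2 (unadjusted p of 0.092, adjusted p = 0.26). The 3 HO-1 knockout values lay close together, and the spread of WT, with 46, 30 and 18 reads, was the wider. Without WT library 3 the difference was 0.14, and without WT library 1 it was 0.61.

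miR-301a-3p and miR-301a-5p both had a higher mean in HO-1 knockout, without passing. The 3p arm averaged 1.18 ± 0.44 RPM in HO-1 knockout and 0.85 ± 0.73 RPM in WT (log2 difference 0.28, SE 0.29, limma adjusted p = 0.61). The 5p arm averaged 4.93 ± 1.21 RPM in HO-1 knockout and 4.14 ± 1.16 RPM in WT (log2 difference 0.21, SE 0.28, limma adjusted p = 0.71). The value of the 3p arm moved with single libraries: the log2 difference was 0.13 without HO-1 knockout library 3, 0.14 without WT library 2 and 0.13 without WT library 3, and it was 0.59 without WT library 1 (unadjusted p of 0.019, limma adjusted p = 0.15). That of the 5p arm was 0.05 without HO-1 knockout library 2, 0.02 without WT library 3 and 0.35 without WT library 1. The difference of the 3p arm was larger with a pseudocount of 0.1 RPM (0.63, limma adjusted p = 0.57). It was 0.71 in edgeR (adjusted p = 0.58) and 0.75 in DESeq2 (adjusted p = 0.61). The 5p arm had 0.48 in edgeR (adjusted p = 0.385) and 0.50 in DESeq2 (adjusted p = 0.43).

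miR-130a-5p and miR-130b-3p had lower means in HO-1 knockout, without passing. miR-130a-5p averaged 0.93 ± 0.13 RPM in HO-1 knockout and 1.39 ± 0.34 RPM in WT (log2 difference -0.30, SE 0.19, limma adjusted p = 0.42). miR-130b-3p averaged 0.477 ± 0.035 RPM in HO-1 knockout and 0.70 ± 0.40 RPM in WT (log2 difference -0.18, SE 0.18, limma adjusted p = 0.60), and without WT library 3 the difference was 0.01. On log2(RPM + 1) the differences of such rare rows are understated. The arms of miR-301b, at 0 or 1 read per library, had limma adjusted p of 0.72 and 0.71 and hold no information on genotype at this depth. In the authors' deposited table, the smallest p-value of a family row was 0.068 for miR-130b-5p, beside a deposited log2 fold change of 0.43, and that of miR-130a-3p was 0.957.

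**Figure D4:**
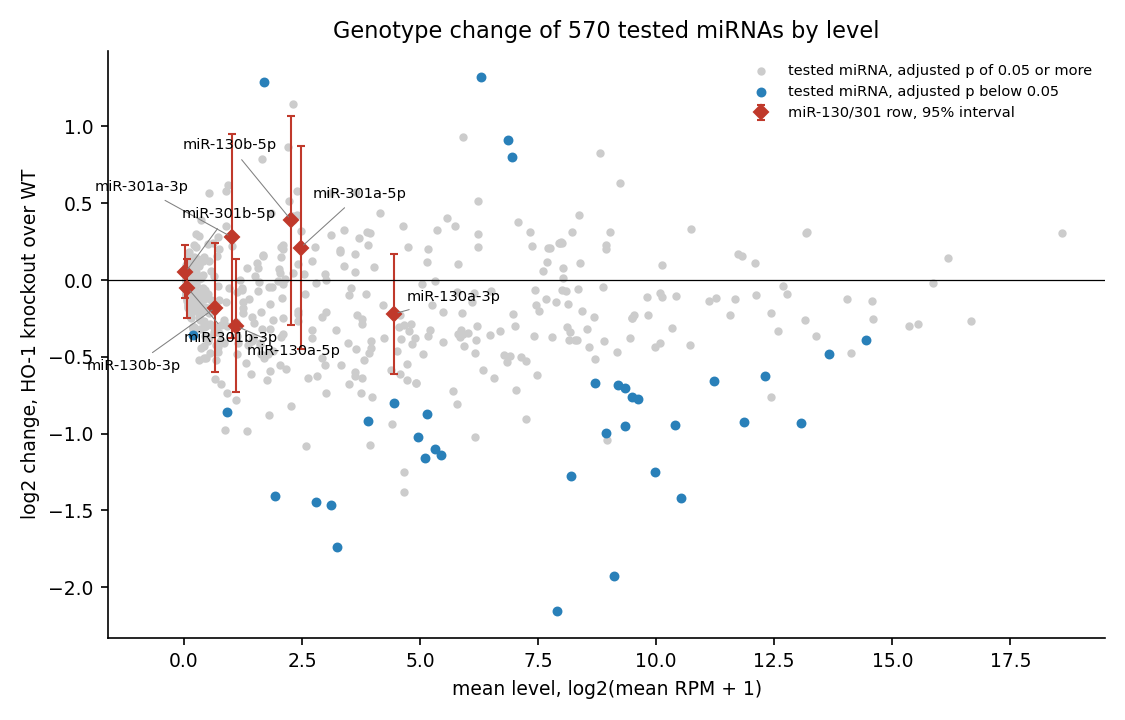
Log2 difference, HO-1 knockout over WT, on log2(RPM + 1) (vertical) against mean level as log2(mean RPM + 1) (horizontal) for the 570 tested miRNAs, with called ones in blue and the 8 family rows as diamonds with their 95% intervals. The interval of every family row includes 0, and the cloud of abundant miRNAs lies below 0 on the whole.

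Arm use did not pass a test between genotypes either. The log2 ratio of 3p to 5p was fitted with limma for the 94 precursors with both arms at a mean of at least 1 RPM, of which 29, or 30.9%, changed at an adjusted p below 0.05. miR-130a and miR-301a were among the 94, with miR-301a-3p just inside at 1.01 RPM, while miR-130b, with its 3p arm at 0.588 RPM, and miR-301b were not fitted. With 1 RPM added to each arm, the log2 ratio of miR-130a was 3.39 in HO-1 knockout and 3.31 in WT, a difference of 0.08 (SE 0.23, 95% interval -0.39 to 0.54, limma adjusted p = 0.85). That of miR-301a was -1.44 in HO-1 knockout and -1.52 in WT, a difference of 0.07 (SE 0.28, 95% interval -0.48 to 0.62, limma adjusted p = 0.86). The sign of both differences turned under some of the alternatives, so the data give no direction for either.

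Ratios between the 3p arms within a library do not depend on its total. miR-130a-3p was 40.9, 34.4 and 46.2 times as abundant as miR-130b-3p in HO-1 knockout libraries, against 43.2, 52.5 and 19.6 times in WT libraries. It was 23.4, 17.2 and 12.2 times as abundant as miR-301a-3p in HO-1 knockout, against 12.8, 52.5 and 54.0 times in WT. The log2 ratio of miR-130b-3p to miR-301a-3p was -0.81, -1.0 and -1.92 in HO-1 knockout and -1.76, 0.00 and 1.47 in WT. For these 3 ratios, exact permutation tests (two-sided, 3 libraries against 3) gave p = 0.9, 0.3 and 0.3 in that order, or 0.90, 0.45 and 0.45 after Benjamini-Hochberg adjustment over the 3, where 0.1 is the smallest p possible. The differences of the mean log2 ratios, HO-1 knockout minus WT, were 0.18, -0.96 and -1.15. Their standard deviations were 0.22, 0.47 and 0.60 in HO-1 knockout and 0.75, 1.19 and 1.61 in WT. With 1 library left out, the differences of the ratios with miR-301a-3p ran from -1.65 (without WT library 1) to -0.61 (without WT library 3) for miR-130a-3p and from -1.98 to -0.37 for miR-130b-3p, at the same libraries, and with 1 RPM added to each arm they were -0.50 and -0.46. Ratios with miR-301b-3p were not formed, because it was at 0 in 3 libraries.

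Other miRNAs of the table carry the family seed shifted by 1 base, and these were far more abundant. They are printed because 6 of the 7 seed letters are shared, and capitals mark the seed.
rno-miR-19a-3p: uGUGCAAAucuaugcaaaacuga
rno-miR-19b-3p: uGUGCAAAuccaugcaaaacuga
rno-miR-148a-3p: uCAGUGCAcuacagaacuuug
rno-miR-148b-3p: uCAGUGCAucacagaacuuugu
rno-miR-152-3p: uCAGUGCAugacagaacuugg
The shared run is GUGCAA for miR-19, a product of the proliferation-linked miR-17-92 clusters, and AGUGCA for the miR-148 and miR-152 group. The 4 family 3p arms summed to 20.9 ± 1.7 RPM in HO-1 knockout and 24.1 ± 0.2 RPM in WT (SD, n = 3 each). The miR-19 rows summed to 333 ± 53 RPM in HO-1 knockout and 388 ± 68 RPM in WT, and the miR-148 and miR-152 rows to 96564 ± 11334 RPM in HO-1 knockout and 115469 ± 8434 RPM in WT. None of these 5 rows passed in limma, while DESeq2 on recovered reads called miR-152-3p (log2 difference 0.34, adjusted p = 0.048). Their log2 differences ran from -0.34 (SE 0.18, limma adjusted p = 0.34) for miR-19b-3p to 0.22 (SE 0.21, limma adjusted p = 0.57) for miR-19a-3p, with a median of -0.23, beside -0.29 over the 218 rows of at least 10 RPM, a level that all 5 reach.

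Of the 21 miRNAs listed for vascular remodelling and fibrosis, the field in which this family is best known, 8 fell, 1 rose and 12 did not pass, against a background of 5.61% of tested rows lower and 0.702% higher. In RPM that background was 32 rows lower and 4 higher, with TMM scaling 29 lower and 20 higher, and with RLE scaling 27 lower and 20 higher, while the list had 8 falls and 1 rise with either scaling. Among the 218 rows averaging at least 10 RPM, fitted alone, 41 were lower and 9 higher. Of the list's 18 such rows, 11 fell and 1 rose. The list was chosen with earlier results of these data known. It also holds both arms of miR-126a and of miR-199a, so its counts are a description only. The median log2 difference of the list was -0.72, beside -0.12 over all tested rows and -0.29 over the 218 rows of at least 10 RPM. With TMM scaling it was -0.51, beside -0.04 and -0.08. miR-21-5p, a miRNA of injury and fibrosis, had the highest level of the list, at 77665 ± 2604 RPM in HO-1 knockout and 70161 ± 2243 RPM in WT, and did not pass (log2 difference 0.15, limma adjusted p = 0.32). It did pass on totals without miR-122-5p (log2 difference 0.34, limma adjusted p = 0.027), on totals without the 10 most abundant miRNAs (0.40, limma adjusted p = 0.037) and in DESeq2 (0.38, adjusted p = 0.013), but not with TMM scaling (0.36, limma adjusted p = 0.16). miR-126a-3p, of endothelial cells, fell to 19302 ± 1170 RPM in HO-1 knockout, against 25300 ± 817 RPM in WT (log2 difference -0.39, limma adjusted p = 0.030), a call lost with TMM scaling (log2 difference -0.18, limma adjusted p = 0.46). miR-143-3p, of smooth muscle, fell to 5914 ± 1034 RPM in HO-1 knockout, against 11348 ± 2414 RPM in WT (log2 difference -0.93, limma adjusted p = 0.025). Of the other smooth muscle markers, miR-143-5p and miR-145-5p fell too (log2 difference -1.14 and -0.95, limma adjusted p = 0.016 and 0.023). miR-145-3p did not, at 268 ± 8 RPM in HO-1 knockout and 254 ± 19 RPM in WT (log2 difference 0.08, limma adjusted p = 0.71). Leaving out single libraries ended the call of miR-126a-3p in all cases but HO-1 knockout library 2 (limma adjusted p of 0.054 to 0.16), and that of miR-143-3p in all cases but HO-1 knockout library 2 and WT library 3 (0.071 to 0.13). miR-27b-3p had 4081 ± 874 RPM in HO-1 knockout and 6922 ± 1416 RPM in WT (log2 difference -0.76, limma adjusted p = 0.056). It did not pass there or on totals without miR-122-5p (limma adjusted p = 0.066), and passed with TMM, RLE and upper-quartile scaling (limma adjusted p = 0.037, 0.043 and 0.040), in edgeR (adjusted p = 0.018) and in DESeq2 (adjusted p = 0.0037). The list holds abundant rows, and its count of falls went down to between 1 and 5 when any single library was left out. No difference between the list and the 8 family rows was tested.

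The rows most like each 3p arm across the 6 libraries were found by Pearson's r of log2(RPM + 1) over the 217 other miRNAs of at least 10 RPM, as a description in which all points share their library totals. For miR-130a-3p they were let-7c-2-3p and let-7a-1-3p, a pair with the same value in each library and so 1 measurement here (r = 0.94), and miR-190a-5p (r = 0.90). The let-7 pair had 659, 624 and 678 RPM in HO-1 knockout libraries, against 740, 765 and 821 RPM in WT libraries. All its HO-1 knockout values were below those of WT, as in 41.7% of the 218 rows of at least 10 RPM. For miR-301a-3p they were miR-152-5p (r = 0.95), miR-425-5p (r = 0.88) and miR-328a-3p (r = 0.81). For miR-130b-3p, whose order rests on 11 reads in WT library 3, they were miR-3559-3p, miR-455-5p and miR-3559-5p (r = 0.82, 0.77 and 0.70). For miR-301b-3p, which had 3 reads in all, no names are given.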

How the data were processed

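Each library used 1 μg of total RNA and a kit that ligates adapters to small RNA, and was read as 50 bp single ends, per the labels' protocols. The authors deposited RPM, the reads per 1000000 assigned to miRNAs, for 6 libraries and 764 rows, with their mean RPM per genotype, log2 fold change and p-value, per the file headers. The submitters' processing notes name FastQC, BWA, edgeR and rn6. Not given in the sources used here are trimming, mismatch rules, strand handling and the treatment of reads that fit several miRNAs.

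Library totals were recovered from the RPM steps: 97.8% to 98.9% of values above 0 lay within 0.0051 RPM of a whole read, against 8.5% to 11.5% for random totals. The step of WT library 1 lies so near 0.1 RPM that its total rests on higher values. Intervals and the limit of 3 reads cover counting error only.

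The main test was limma 3.58.1 with a trend in level, on log2(RPM + 1) of the 570 rows with any value above 0, for genotype alone; it was tested on simulated data. Arm ratios were fitted likewise over 94 precursors. edgeR 4.0.16 and DESeq2 1.42.0 were run on recovered reads as alternatives, beside TMM, RLE and upper-quartile scaling, other totals, pseudocounts of 0.1 and 5 RPM, a minimum of 10 RPM, no trend, a replicate block and each library left out. Named miRNAs were all family rows, 5 with a shifted seed, the 3 rows most like each 3p arm, and at most 4 by level of a vascular and fibrosis list. Markers of hepatocytes, germ cells and gonad, endothelial cells and smooth muscle were named beside them. miR-3590 was named after its values were seen. The members and lists were chosen with earlier results of these data known. Sequences and neighbouring genes came from RefSeq (GRCr8). P-values measure the spread between libraries, since separate animals are not stated.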

Additional observations from a re-analysis of the deposited data

How the results depend on the processing

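The family had 0 called rows in all 18 alternatives. miR-130a-5p, both arms of miR-301a, miR-130b-5p and both arms of miR-301b kept their direction in every alternative that gave a value, though the miR-301b arms rest on 4 reads. miR-130a-3p turned to 0.01 with RLE scaling, 0.03 on totals without the 10 most abundant miRNAs and 0.0042 in DESeq2, and without single libraries it ran from -0.26 to -0.16. miR-130b-3p ran from -0.29 to 0.01 without single libraries. The arm ratio difference was -0.08 for miR-130a and -0.04 for miR-301a with a pseudocount of 5 RPM. With a pseudocount of 0.1 RPM it was 0.28 (SE 0.32) and 0.37 (SE 0.44), so its size depended on the pseudocount. Without single libraries it ran from -0.01 to 0.22 for miR-130a and from -0.18 to 0.28 for miR-301a. The difference in the ratio of miR-130a-3p to miR-130b-3p was -0.04 with 1 RPM added, and -0.24 to 0.47 without single libraries. Over all miRNAs, 36 calls became 55 on totals without the 10 most abundant, 61 in edgeR, 72 in DESeq2 and 5 to 26 without single libraries, the fewest without HO-1 knockout library 3. The 29 arm pairs called became 18 with a minimum of 10 RPM per arm, where neither family precursor could be fitted, and 14 to 30 without single libraries. A minimum of 10 RPM left miR-130a-3p as the only family row.

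Libraries with the same number in both genotypes deviated together with correlations of 0.03, 0.18 and 0.20 over 218 miRNAs. For libraries with different numbers the correlations ran from -0.29 to 0.06. The numbers were not taken to pair the samples in the main fit, and these correlations cannot decide whether they do. With the replicate block there were 22 calls and 0 in the family, and miR-130a-3p kept a log2 difference of -0.22 (limma adjusted p = 0.62). Depth limits most the rows other than miR-130a-3p, which had at most 62 reads in a library. For miR-130a-3p, with 163 to 217 reads in a library, the Poisson intervals of the genotypes overlapped too.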
